A study of Mus musculus with 10 samples.

Results

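The comparison described here set splenic CD45-positive EPC against splenic CD45-negative EPC, sorted by flow cytometry from female C3H/HeN mice of wild-type genotype that carried SCC7 tumors. SCC7 is a mouse squamous cell carcinoma line, and the labels give the disease state as HNSCC, head and neck squamous cell carcinoma; the abbreviation EPC is not spelled out in the labels and is used as given. Every mouse carried a tumor, so the comparison holds no tumor-free control, and both groups share the strain, the sex, the organ and the tumor. The labels do not say whether the numbered samples came from separate mice, and the p-values therefore reflect only how these samples vary. The 6 splenic libraries, 3 CD45-negative and 3 CD45-positive, were taken from the 10 of the series by their labels; the 4 libraries of tumor CD45-positive EPC were not part of the main test. Red cell transcripts led in all 6: globin genes made up 62.5 to 63.5% of the summed FPKM in the CD45-negative libraries and 29.4 to 52.2% in the CD45-positive ones. The band 3 gene Slc4a1, the chief anion exchanger of the red cell membrane, stood at 1966 FPKM or more in each library.

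Red cells arise from progenitors that switch on haemoglobin, haem synthesis and a specialised membrane skeleton, divide a few more times, condense their nucleus and expel it. CD45, encoded by Ptprc, is the receptor phosphatase that marks nearly all nucleated blood cells; it removes an inhibitory phosphate from kinases of the Src family and is lost from the surface as red cell precursors mature. The spleen of a mouse is a site of red cell production under stress, and also holds lymphocytes, granulocytes and the red pulp macrophages that take up old red cells.

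Values are FPKM, fragments scaled to transcript length and to the mapped fragments of the library, summed over the transcript models of a gene, and in each list of 3 values the order is replicate 1, 2 and 3. Differences are CD45-positive minus CD45-negative on the log2(FPKM + 1) scale with their standard error (SE, n = 3 against 3), a scale that understates the change of genes near 0. Adjusted p-values come from limma over 9725 genes at 1 FPKM or more in 3 of the 6 libraries, with Benjamini-Hochberg adjustment and a threshold of 0.05. The labels do not state the depth; steps among the low values put 1 FPKM of a transcript of 1 kilobase at 17.9 to 20.9 fragments, so values near 1 rest on few fragments. Between 7850 and 7957 genes reached 1 FPKM in the CD45-negative libraries, against 9825 to 10887 in the CD45-positive ones. As deposited, 4911 genes (50.5%) were higher and 487 (5.01%) lower in CD45-positive cells. Scaled by the sum of the non-globin genes, 3993 (41.1%) were higher and 888 (9.13%) lower. A trimmed-mean scaling gave 2370 (24.4%) higher and 3373 (34.7%) lower. The median difference over all genes was 0.67, 0.45 and -0.26 on the log2 scale in turn, so the sign of a small rise as deposited can depend on the scaling. A call is named firm below where it had the same sign and passed under all 3 scalings and, as deposited, without each of the 6 libraries in turn. By this rule 2298 rises (23.6% of genes tested) and 180 falls (1.85%) were firm. A scaling of each library to a common sum of all genes was left out of the rule. Under it all 4911 rises but only 121 of the 487 falls kept their call. All 487 falls kept their call under the scaling without globin genes and under the trimmed mean, which both lowered the median difference. The scaling part of the rule thus removed no fall, and what makes a fall firm is the test without each library. Of the genes tested, 1602 lay under 1 FPKM in every CD45-negative library, so that they could enter only through the CD45-positive group; 1593 of them were called higher. Among the 2298 firm rises, 1309 were such genes. The filter fixed the direction of such genes, and their number is given for the lists of leukocyte genes below.

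CD45-positive replicate 2 stood apart from the other CD45-positive libraries. Its log2 values correlated at 0.911 to 0.927 with the CD45-negative libraries and at 0.850 and 0.884 with CD45-positive replicates 1 and 3, which correlated with each other at 0.973. For 36.1% of genes tested, replicate 2 lay nearer to the CD45-negative mean than to the mean of CD45-positive replicates 1 and 3. It was the lowest of its group for 2880 of the 4911 genes called higher (58.6%). Without it, 5314 genes were higher (54.6%) and 1421 lower (14.6%), against 487 lower with it; with the globin-free scaling as well, the shares were 46.9% and 19.6%. The count of lower genes was 206, 229 and 276 without CD45-negative replicates 1, 2 and 3, and 313 without CD45-positive replicate 1. Fewer cells of one type in a sorted sample and less RNA per cell of that type cannot be told apart in such libraries.

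**Figure D1:**
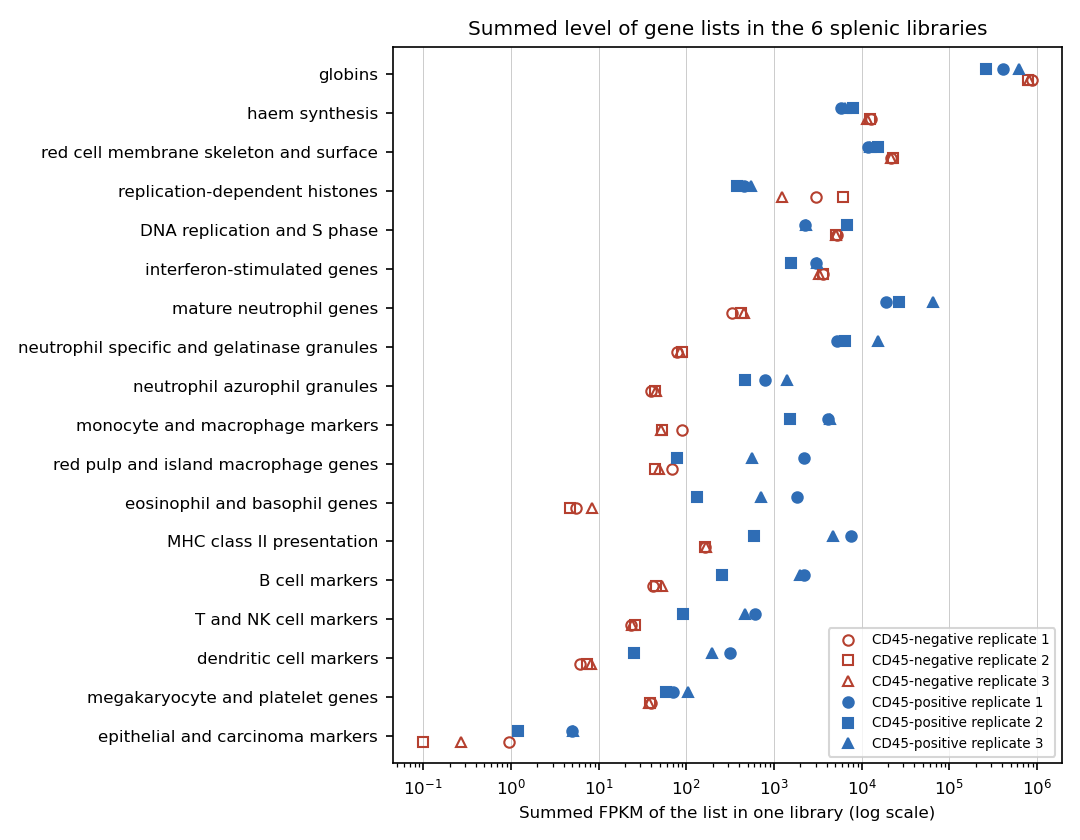
Summed FPKM of 18 gene lists (log scale) in each of the 6 splenic libraries, with open red symbols for CD45-negative and filled blue symbols for CD45-positive libraries, and the symbol shape for the replicate. The neutrophil lists of all 3 CD45-positive libraries lie far to the right of the CD45-negative ones, whereas for the red pulp macrophage list CD45-positive replicate 2, at 77.5 FPKM, lies next to the CD45-negative libraries, at 44.4 to 68.4 FPKM.

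The gene for the sorting marker was first examined in every library. Ptprc stood at 1.63, 2.57 and 2.31 FPKM in CD45-negative cells and at 265, 39.2 and 153 FPKM in CD45-positive cells. The groups did not overlap, and CD45-positive replicate 2 was the lowest of its group but still above every CD45-negative library. The difference was 5.23 ± 0.63 on the log2 scale (adjusted p = 0.00116) and was firm. Genes through which CD45 acts were mostly higher too: of 25 tested genes for its kinase substrates and their partners, 23 rose and 1 fell as deposited, where 50.5% of all genes rose and 5.01% fell, and 22 rises and the fall were firm. Their median difference was 3.30, against 0.67 over all genes tested. Of the 25, 13 lay under 1 FPKM in every CD45-negative library. Among the Src family kinases, Lyn stood at 1.55, 1.70 and 1.73 FPKM against 94.8, 16.7 and 48.9 FPKM. Downstream of them, Syk rose by 4.27 ± 0.56 and Plcg2, a phospholipase that releases calcium, by 3.89 ± 0.48 on the log2 scale. Ptpn6, the phosphatase SHP-1 that opposes these kinases, went from 10.01, 9.11 and 10.6 FPKM to 177, 49.7 and 150 FPKM. Lck, the Src kinase of T cells, was an exception among the family: it stood at 15.01, 13.8 and 13.6 FPKM in CD45-negative cells and at 53.4, 15.2 and 46.0 FPKM in CD45-positive cells, and did not pass (adjusted p = 0.0503). Dok1, an adaptor that restrains kinase signalling, fell from 79.2, 65.9 and 62.1 FPKM to 42.3, 32.6 and 36.5 FPKM, and was the only firm fall of the list.

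**Figure D2:**
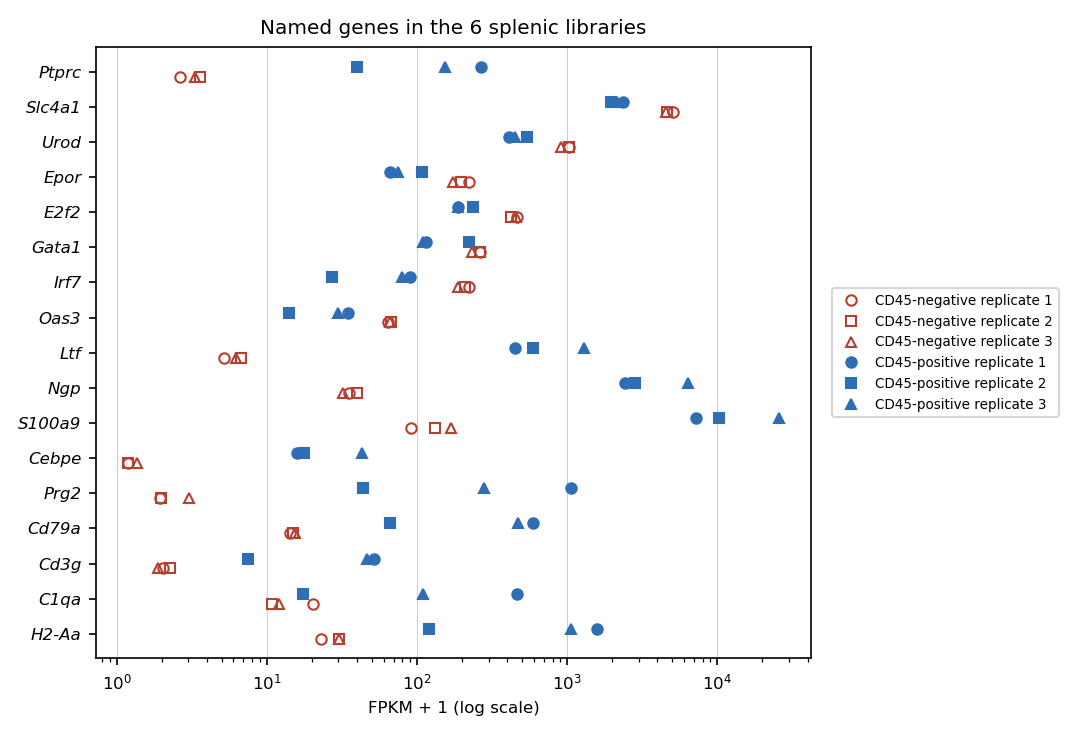
FPKM + 1 (log scale) of 17 named genes in each splenic library, with open red symbols for CD45-negative and filled blue symbols for CD45-positive libraries. Ptprc, the neutrophil genes and Prg2 separate the groups widely, Slc4a1, Urod, Epor, E2f2, Irf7 and Oas3 lie lower in all 3 CD45-positive libraries, and C1qa overlaps through CD45-positive replicate 2, at 16.4 FPKM.

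The red cell programme was lower in CD45-positive cells, by less than the leukocyte genes were higher. Of the 12 tested genes of haem synthesis and mitochondrial transport, 9 fell and none rose as deposited, 10 fell under the scaling without globin genes, and 5 falls were firm; the median difference was -0.85. Urod, which trims the side chains of the ring, went from 1024, 1028 and 914 FPKM to 412, 543 and 452 FPKM, a difference of -1.08 ± 0.18 (adjusted p = 0.00275). Fech, which inserts the iron, fell by 0.77 ± 0.17, Ppox by 0.85 ± 0.18 and the glycine carrier Slc25a38 by 1.01 ± 0.21 on the log2 scale, all firm. Alas2, the first and rate-limiting enzyme in red cells, was lower in all 3 CD45-positive libraries, at 1586, 1108 and 2217 FPKM against 3358, 3292 and 3012 FPKM, but its call did not hold without CD45-negative replicate 1 (adjusted p = 0.0586). Cpox and Tmem14c overlapped between the groups: Tmem14c, needed to carry a haem precursor into the mitochondrion, stood at 920, 818 and 813 FPKM in CD45-negative cells and at 325, 1095 and 338 FPKM in CD45-positive cells, where replicate 2 was the highest of all 6. Without CD45-negative replicate 1 the list gave 5 falls. Scaled to a common sum, which the firm rule leaves out, it gave 0 falls.

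The globin genes together took a smaller share of the summed FPKM in each CD45-positive library. Hbq1b, a theta globin, went from 295, 287 and 245 FPKM to 95.3, 78.8 and 121 FPKM (-1.49 ± 0.21, adjusted p = 0.00169), the only firm fall among 8 tested globin genes. As deposited 7 of the 8 fell, but between 1 and 4 fell without CD45-negative replicate 1, 2 or 3 or CD45-positive replicate 1 or 2. When scaled to a common sum, 3 fell. The adult alpha gene Hba-a1 stood at 403200, 383410 and 313170 FPKM in CD45-negative cells and at 216170, 122860 and 268490 FPKM in CD45-positive cells, and Hbb-b1 at 351700, 319250 and 395150 FPKM against 140830, 111660 and 276990 FPKM. CD45-positive replicate 2 had the lowest value of both. The alpha and beta genes have near-identical copies, so the split between copies is uncertain. Globins took up to 63.5% of the summed FPKM, which is a share per transcript length and not a share of fragments. Each non-globin value of a library also depends on the globin share of its fragments, which is why the scaling without globins was set beside the deposited one.

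The red cell membrane showed the same direction. Of 28 tested genes for its skeleton and surface proteins, 18 fell and none rose as deposited, 24 fell under the scaling without globin genes and 9 falls were firm; the median difference was -0.67 as deposited and -0.93 without globins. The 18 falls came down to 11, 9 and 10 without CD45-negative replicates 1, 2 and 3 and to 10 without CD45-positive replicate 1. They came down to 3 when scaled to a common sum, which the firm rule leaves out. Slc4a1 went from 5040, 4652 and 4572 FPKM to 2367, 1966 and 2161 FPKM, a difference of -1.14 ± 0.17 (adjusted p = 0.00207). Dmtn, dematin, which bundles actin at the skeleton's junctions, went from 366, 344 and 319 FPKM to 146, 159 and 146 FPKM (-1.19 ± 0.16, adjusted p = 0.0016). The groups were well apart for both, and the CD45-positive replicates were close to each other. Rhd, the Rh blood group channel protein, fell by 1.06 ± 0.20, Tspo2, an erythroid transporter-like protein, by 1.19 ± 0.18, Icam4, the adhesion protein that binds red cell precursors to macrophages, by 0.94 ± 0.18, and Tmod1, the cap of the short actin filaments, by 0.99 ± 0.18 on the log2 scale. The spectrin gene Sptb did not pass, at 219, 233 and 297 FPKM against 155, 219 and 123 FPKM.

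The stretch before the start of Rhd is shown because it holds the letters bound by GATA factors, the chief activators of red cell genes. The letters AGATAA were searched on both strands of RefSeq promoter windows of mouse GRCm38.p6, from 250 bases before to 50 after each start. They stood in 3672 of 32851 windows (11.2%) and in 5 of the 21 windows of the red cell membrane list (23.8%), those of Epb42, Icam4, Kel, Mpp1 and Rhd. Other lists held them in 33.3% (specific and gelatinase granules), 23.5% (histones), 17.9% (interferon-stimulated genes) and 16.7% (haem synthesis) of windows. The share was 14.3% for mature neutrophil genes, 4% for S phase genes and 2 of 3 windows for the NADPH oxidase. The letters thus did not set the red cell list apart. Of its members with a window, 2 of the 6 firm falls and 3 of the 12 others held a match. The 250 bases before the start of Rhd (chr4:134864286-134864535, plus strand) are given 5′ to 3′ with the match in capitals:
Rhd: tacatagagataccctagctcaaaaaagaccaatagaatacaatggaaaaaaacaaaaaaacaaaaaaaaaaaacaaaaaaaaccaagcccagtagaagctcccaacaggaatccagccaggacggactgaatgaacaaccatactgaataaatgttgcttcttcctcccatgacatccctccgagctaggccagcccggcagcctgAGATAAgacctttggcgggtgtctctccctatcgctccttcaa
The match begins 43 bases before the start. A match of letters is a description, and binding was not measured.

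Red cell transcription factors were uneven, and much of the spread lay in CD45-positive replicate 2. Of 18 tested, 7 fell and 3 rose as deposited; 1 fall and 1 rise were firm. The 7 falls became 1, 2 and 3 without CD45-negative replicates 1, 2 and 3, 3 and 4 without CD45-positive replicates 1 and 3, and 11 without CD45-positive replicate 2. Scaled to a common sum, 1 fall was left. E2f2, a cell cycle factor that works late in red cell maturation, held its fall: 460, 420 and 456 FPKM against 185, 235 and 188 FPKM (-1.14 ± 0.18, adjusted p = 0.00219). Myb, a factor of early progenitors, rose from 1.24, 1.32 and 1.49 FPKM to 6.38, 4.95 and 10.8 FPKM. Gata1 stood at 260, 264 and 230 FPKM in CD45-negative cells and at 114, 223 and 109 FPKM in CD45-positive cells, and Klf1, the other master activator of adult globin genes, at 788, 719 and 704 FPKM against 271, 613 and 329 FPKM. In both, CD45-positive replicates 1 and 3 lay well below the CD45-negative range and replicate 2 close under it. Gfi1b, a repressor needed in red cells and platelets, overlapped, at 98.6, 89.4 and 76.2 FPKM against 30.6, 88.2 and 30.8 FPKM.

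In the list of erythropoietin receptor signalling, the receptor gene fell while several genes that damp cytokine receptors rose. Epor fell from 220, 195 and 173 FPKM to 64.9, 107 and 73.7 FPKM (-1.28 ± 0.23, adjusted p = 0.00361), and without CD45-positive replicate 2 by 1.48. Of 17 tested genes of the pathway and its targets, 11 rose and 2 fell as deposited, where 50.5% of all genes rose and 5.01% fell. Of these calls 6 rises and the fall of Epor were firm, and 1 fall was left without any CD45-negative replicate or CD45-positive replicate 3. The firm rises were Osm, Lyn, Ptpn6, Sh2b3, Socs2 and Socs3, of which the last 4 encode proteins that damp cytokine receptors. Sh2b3 stood at 2.52, 2.44 and 2.60 FPKM against 27.0, 9.08 and 16.6 FPKM, and Socs3 at 1.61, 1.24 and 1.18 FPKM against 27.9, 4.11 and 9.02 FPKM. These genes also act in leukocytes, whose markers were higher in the same libraries, and the part of those cells in the rises was not tested. Jak2, the kinase bound to the receptor, overlapped, at 20.1, 34.7 and 30.8 FPKM against 30.9, 33.5 and 34.4 FPKM. No call of Jak2, Stat5a or Stat5b was firm. Erfe, the hormone by which red cell precursors lower hepcidin, was uneven among CD45-positive libraries: 15.8, 13.98 and 13.5 FPKM against 72.8, 56.2 and 14.5 FPKM (adjusted p = 0.0611). Cish, a direct target of the pathway, had the same order, at 39.8, 21.2 and 5.04 FPKM in CD45-positive cells against 3.05, 3.61 and 3.08 FPKM, and its call did not survive leaving out any CD45-negative replicate or CD45-positive replicate 1 (largest adjusted p = 0.0815).

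Genes for iron, for clearing organelles and for removing peroxide held few firm calls. Over all genes tested, 50.5% rose and 5.01% fell as deposited, and 14.6% fell without CD45-positive replicate 2. Without globin genes in the scaling 41.1% rose and 9.13% fell. In each of these lists, as deposited, rises were less frequent and falls more frequent than among all genes. Scaled to a common sum, 0, 1 and 1 of their genes fell in turn. Of 20 tested iron genes, 4 rose and 3 fell as deposited, 1 rose and 8 fell without globin genes in the scaling, and 10 fell without CD45-positive replicate 2. Without CD45-negative replicate 1 only 1 rise and 1 fall were left, and without CD45-negative replicate 3 only 1 rise. The firm ones were Blvrb, a biliverdin and flavin reductase of red cells, which fell from 2290, 1944 and 1799 FPKM to 822, 1284 and 745 FPKM, and Flvcr1, a haem exporter, which rose from 0.69, 0.88 and 0.73 FPKM to 6.70, 4.49 and 4.86 FPKM. The transferrin receptor Tfrc overlapped, at 373, 667 and 578 FPKM against 609, 962 and 550 FPKM. Hmox1, which breaks down haem in macrophages, stood at 7.24, 8.32 and 7.75 FPKM against 237, 11.8 and 103 FPKM, with CD45-positive replicate 2 near the CD45-negative libraries, and its call was lost under the scaling without globins (adjusted p = 0.0505). Of 21 organelle clearance and enucleation genes, 7 fell and 3 rose; the firm calls were the falls of Atg4d, an autophagy protease, and Ranbp10 and the rise of Alox15, a lipoxygenase also found in eosinophils. Without CD45-negative replicate 1 or 2, 4 fell, and without any one of the CD45-negative replicates, 1 rose. Of 20 antioxidant genes 5 fell and 5 rose, and 9 fell without CD45-positive replicate 2, whereas 3, 2 and 3 rose without CD45-negative replicates 1, 2 and 3. The firm falls were the most abundant members: Gpx1 went from 6999, 6638 and 5501 FPKM to 2833, 2936 and 3545 FPKM, and Prdx2, the main peroxiredoxin of red cells, from 3083, 3181 and 2479 FPKM to 1569, 1859 and 1363 FPKM. Gpx4 and Txnrd2 fell too, with differences of -0.86 ± 0.19 and -0.95 ± 0.22. Prdx5 rose instead, from 19.8, 15.2 and 15.5 FPKM to 127, 106 and 243 FPKM (3.08 ± 0.32, adjusted p = 0.000802), and so did Hmox2, by 1.57 ± 0.22.

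The largest falls of the comparison were in histone genes. Replication-dependent histones are made in S phase to package new DNA, and their messenger RNAs end in a stem-loop in place of a poly(A) tail. Of 53 tested, 51 fell and none rose both as deposited and without globins in the scaling, and 40 falls were firm, of 180 firm falls in all. Their median difference was -2.72, against 0.67 over all genes. H2ac22 went from 94.4, 152 and 61.0 FPKM to 9.88, 9.62 and 12.9 FPKM (-3.05 ± 0.33, adjusted p = 0.000931), H3c8 from 34.3, 38.7 and 21.7 FPKM to 4.80, 5.52 and 6.23 FPKM (-2.29 ± 0.26), and H3c13 from 45.2, 79.1 and 26.3 FPKM to 5.94, 5.98 and 5.83 FPKM (-2.75 ± 0.37). The groups were apart in each, and CD45-positive replicate 2 was like its group here. The greatest difference was that of H4c6, from 105, 232 and 22.7 FPKM to 9.26, 2.13 and 6.77 FPKM (-3.73 ± 0.82, adjusted p = 0.00716). Linker histones H1f3 and H1f5 fell with the core histones, with differences of -2.96 ± 0.64 and -2.82 ± 0.50. The CD45-negative libraries differed among themselves in these genes more than in any erythroid list shown: the list summed to 3014, 6114 and 1250 FPKM there, against 460, 377 and 541 FPKM in the CD45-positive libraries, so that the lowest CD45-negative sum was still above the highest CD45-positive one. The labels do not say how RNA was selected for the libraries, and the part of that step in this spread was not tested. H2bc21 and H2ac18 did not pass; H2bc21, a member whose messenger can carry a poly(A) tail, overlapped, at 5.16, 6.24 and 5.57 FPKM against 4.61, 6.92 and 3.37 FPKM.

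**Figure D3:**
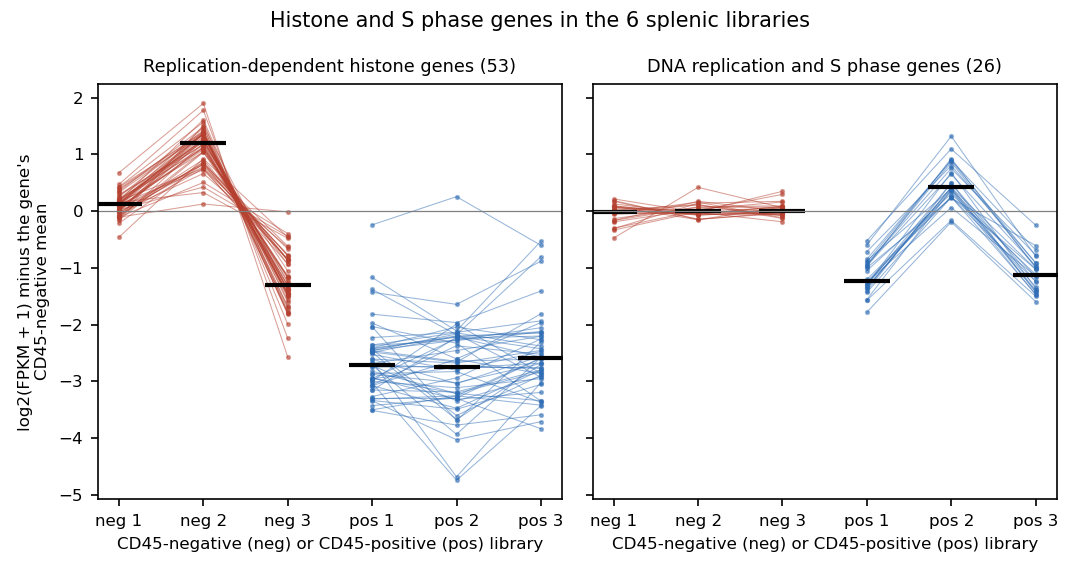
Each line is one gene's log2(FPKM + 1) minus its CD45-negative mean in the 3 libraries of a group (lines join the values of one gene and give replicates no order), with black bars for the median of the list in each library. The median of the 53 histone genes lies lower in each CD45-positive library than in any CD45-negative one, whereas the 26 S phase genes lie lower in CD45-positive replicates 1 and 3 and mostly above the CD45-negative mean in replicate 2.

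Histone promoters hold CCAAT boxes, the letters bound by the factor NF-Y. CCAAT, searched on both strands, stood in 43 of the 51 windows of the list (84.3%) and in 12289 of 32851 windows of all genes (37.4%). The other lists searched held CCAAT in 33.3 to 56% of windows. The letters TTTNGCGC of E2F factors stood in 11 of the 51 (21.6%) and in 452 of all windows (1.38%). The S phase list held the E2F letters in 8 of 25 windows (32%), and the remaining lists searched held them in no window. Of the histone genes with a window, 29 of the 36 firm ones and 11 of the 12 other tested ones held CCAAT. The stretch of H2ac22 is shown because its fall had the smallest adjusted p-value of all falls; its 250 bases before the start (chr13:21787249-21787498, minus strand) are given 5′ to 3′ with 4 CCAAT matches in capitals:
H2ac22: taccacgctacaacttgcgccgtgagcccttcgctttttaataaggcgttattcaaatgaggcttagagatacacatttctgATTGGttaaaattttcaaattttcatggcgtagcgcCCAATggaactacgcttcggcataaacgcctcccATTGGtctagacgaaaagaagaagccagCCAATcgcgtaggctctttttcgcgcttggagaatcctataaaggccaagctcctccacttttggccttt

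Few other genes of DNA replication passed the test. Of 26 tested S phase genes, 2 fell as deposited and none was firm, and 23 fell under the trimmed-mean scaling. Over all genes tested, 5.01% fell as deposited and 34.7% under the trimmed-mean scaling. Without CD45-positive replicate 2, 25 fell, where 14.6% of all genes fell, and without any other library none did. Mcm2, a subunit of the replicative helicase, stood at 283, 250 and 247 FPKM in CD45-negative cells and at 102, 331 and 92.7 FPKM in CD45-positive cells. Pcna, the sliding clamp, stood at 1406, 1362 and 1399 FPKM against 602, 1652 and 681 FPKM. In both, CD45-positive replicates 1 and 3 were under the CD45-negative range and replicate 2 was above it. The list summed to 2240, 6824 and 2303 FPKM in the CD45-positive libraries and to 5227, 5144 and 5093 FPKM in the CD45-negative ones. Mitosis genes showed less of this: 1 of 24 fell as deposited, 7 without globins in the scaling and 16 without CD45-positive replicate 2, and Mki67 overlapped, at 232, 555 and 356 FPKM against 309, 563 and 318 FPKM. Among inhibitors of the cycle and exit genes, 6 of 17 rose and 2 fell, with 4 rises and 1 fall firm. Over all genes tested 50.5% rose and 23.6% were firm rises, so neither count of rises exceeded the share of all genes. Of this list 5 fell without CD45-positive replicate 2, and 1 without CD45-negative replicate 1 or 2 or CD45-positive replicate 1 or 3. The firm fall was Cdkn2d, the inhibitor p19 of Cdk4 and Cdk6, from 363, 326 and 307 FPKM to 135, 133 and 183 FPKM (-1.15 ± 0.20), and its target Cdk6, silenced late in red cell maturation, rose from 0.44, 0.49 and 0.45 FPKM to 2.42, 2.94 and 2.22 FPKM (1.27 ± 0.18, adjusted p = 0.00176). Among replacement histones and histone chaperones, 4 of 17 fell and 1 rose. The falls of H2ax, the variant that marks DNA breaks, by 1.34 ± 0.24 on the log2 scale, and of the chaperone Asf1b, by 1.05 ± 0.26, were firm. Macroh2a1 rose from 6.64, 6.41 and 6.34 FPKM to 97.1, 30.6 and 80.1 FPKM. The count of falls in this list was 2 without any one of the CD45-negative replicates or CD45-positive replicate 1, and 12 without CD45-positive replicate 2.

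Interferon-stimulated genes split in 2 directions. Of 30 tested, 8 fell and 7 rose as deposited, and 6 falls and 5 rises were firm. Over all genes tested, 5.01% fell and 50.5% rose as deposited, and 1.85% were firm falls and 23.6% firm rises. Falls were thus more frequent and rises less frequent in this list than among all genes. The median difference was -0.30. Irf7, the factor that amplifies the type I interferon response, went from 223, 208 and 186 FPKM to 88.5, 26.1 and 78.6 FPKM (-1.83 ± 0.44, adjusted p = 0.00958). Ifi27 went from 365, 362 and 326 FPKM to 154, 75.8 and 155 FPKM, and Oas3, which makes the activator of RNase L, from 62.8, 65.8 and 65.7 FPKM to 34.0, 13.1 and 28.7 FPKM. Isg20, an RNA exonuclease, Usp18, the protease that removes ISG15, and Oasl1 fell by 0.93 ± 0.20, 1.14 ± 0.18 and 1.20 ± 0.25 on the log2 scale. CD45-positive replicate 2 was the lowest of all 6 libraries for Irf7, Ifi27 and Oas3. The firm rises were Ifitm1, Ifitm2, Ifitm6, the DNA sensor Zbp1 and the RNA sensor Ddx58. Ifitm6 had the greatest rise of the whole comparison, from 1.26, 1.89 and 2.40 FPKM to 256, 331 and 696 FPKM (7.12 ± 0.38, adjusted p = 0.000253). Isg15 was lower in all 3 CD45-positive libraries, at 677, 143 and 538 FPKM against 1278, 1142 and 1036 FPKM, but it was not firm. Without CD45-positive replicate 2, 12 genes of the list rose and 10 fell, where 54.6% of all genes rose and 14.6% fell.

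The interferon response element, searched on both strands as GAAA, any 2 bases and GAAA, stood in 13 of the 28 promoter windows of this list (46.4%) and in 1131 of all 32851 (3.44%). Matches stood on both sides of the split: 1 of 4 firm falls with a window, 2 of 4 firm rises and 10 of 16 members firm in neither direction held a match. Oas3 is shown as the firm fall that holds one; its 250 bases before the start (chr5:120777660-120777909, minus strand) are given 5′ to 3′ with the match in capitals:
Oas3: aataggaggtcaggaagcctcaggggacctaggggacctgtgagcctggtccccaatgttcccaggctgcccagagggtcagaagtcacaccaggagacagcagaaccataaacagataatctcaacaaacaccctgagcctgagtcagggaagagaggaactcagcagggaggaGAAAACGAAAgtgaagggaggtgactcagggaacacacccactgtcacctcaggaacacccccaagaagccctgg

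Neutrophil genes were higher in all 3 CD45-positive libraries, and the list of specific and gelatinase granules had the greatest median difference of the lists tested, as deposited. All 9 tested azurophil granule genes, all 14 genes of the specific and gelatinase granules and all 16 genes of mature neutrophils rose, and every one of these calls was firm. Their median differences were 4.17, 5.82 and 4.48, against 0.67 over all genes. Of them 2, 6 and 7 in turn lay under 1 FPKM in every CD45-negative library and so could enter only by being high in the other group. Ltf, lactoferrin, stood at 4.23, 5.70 and 5.28 FPKM in CD45-negative cells and at 447, 594 and 1298 FPKM in CD45-positive cells (6.86 ± 0.38, adjusted p = 0.000253). Ngp, another protein of the specific granules, went from 34.4, 39.0 and 31.3 FPKM to 2445, 2832 and 6366 FPKM, and S100a9, a subunit of calprotectin, from 90.6, 132 and 169 FPKM to 7225, 10228 and 25593 FPKM. In each of these 3 genes CD45-positive replicate 3 was the highest and replicate 1 the lowest, so the library that stood apart elsewhere was in the middle here. Azurophil granule enzymes, made earliest in the lineage, were lower in level: Mpo stood at 75.5, 38.9 and 132 FPKM and Elane at 81.2, 52.5 and 170 FPKM in CD45-positive cells, against 4.37 FPKM or less of either in the CD45-negative ones. Cebpe, the factor needed to make specific granules, rose from 0.20, 0.20 and 0.36 FPKM to 14.9, 16.7 and 42.2 FPKM, and Cebpa, which acts earlier, from 0.20, 0.20 and 0.15 FPKM to 12.2, 1.65 and 5.95 FPKM. Genes of the phagocyte NADPH oxidase rose too, 8 of 8 as deposited and 7 firm: Cybb went from 0.84, 1.18 and 1.23 FPKM to 129, 56.9 and 128 FPKM, and Ncf1 from 1.69, 1.73 and 1.42 FPKM to 91.5, 74.1 and 171 FPKM. Eicosanoid synthesis had 8 rises of 10, 7 of them firm and 4 of the 10 able only to rise, led by Alox5ap, the partner protein of 5-lipoxygenase, at 2.46, 1.75 and 1.17 FPKM against 141, 93.3 and 167 FPKM. The erythroid and the neutrophil genes were read from the same bulk RNA, and whether they came from the same cells was not tested.

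The letters GAGGAAGT, searched on both strands as bound by the factor PU.1, encoded by Spi1, stood in 3 of 12 promoter windows of the specific and gelatinase granule list (25%), those of Ltb4r1, Mmp8 and Olfm4, and in 1052 of all 32851 (3.2%). Spi1 itself rose from 2.20, 1.86 and 1.95 FPKM to 99.0, 33.5 and 92.9 FPKM (4.52 ± 0.40, adjusted p = 0.000623). Mmp8, the neutrophil collagenase, rose from 0.23, 0.49 and 0.40 FPKM to 54.9, 68.2 and 197 FPKM and is shown as the most strongly raised holder of a match; its 250 bases before the start (chr9:7558179-7558428, plus strand) are given 5′ to 3′ with the match in capitals:
Mmp8: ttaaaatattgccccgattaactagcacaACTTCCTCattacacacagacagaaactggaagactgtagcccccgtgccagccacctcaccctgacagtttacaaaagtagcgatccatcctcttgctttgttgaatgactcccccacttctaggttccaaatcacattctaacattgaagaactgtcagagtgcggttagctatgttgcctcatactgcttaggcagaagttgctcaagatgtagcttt

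Markers of other leukocytes were higher as well, but in most of these lists CD45-positive replicate 2 lay far below replicates 1 and 3. All 18 B cell markers rose, 17 firmly, with 4 under 1 FPKM in every CD45-negative library: Cd79a, a chain of the B cell receptor, stood at 13.2, 13.9 and 14.5 FPKM against 593, 64.9 and 469 FPKM. Of 21 tested T and NK cell markers 20 rose, 18 firmly, and 16 of the 21 lay under 1 FPKM in every CD45-negative library; Cd3g stood at 1.03, 1.26 and 0.88 FPKM against 50.9, 6.45 and 45.8 FPKM. All 13 genes of MHC class II presentation rose, 10 firmly, with 2 that could only rise, and H2-Aa went from 21.8, 29.3 and 29.2 FPKM to 1581, 120 and 1062 FPKM. The list sums in CD45-positive replicates 1, 2 and 3 were 2230, 253 and 1993 FPKM for B cell markers, 605, 92.5 and 473 FPKM for T and NK cell markers and 7535, 596 and 4707 FPKM for MHC class II. For the mature neutrophil genes the same sums were 19185, 26826 and 64635 FPKM, so replicate 2 was low in the lymphoid lists and not in the neutrophil list. Plasma cell genes differed in yet another way: Jchain, which joins secreted antibody units, stood at 253, 57.9 and 1330 FPKM in CD45-positive cells, with replicate 3 the highest, against 10.3, 11.6 and 17.9 FPKM. Of 8 tested plasma cell genes 7 rose, 4 without CD45-negative replicate 1, and 4 firmly; 3 could only rise. All 6 tested dendritic cell markers rose, 4 firmly, but 4 of the 6 could enter only from the CD45-positive side, while 6 listed ones, among them Zbtb46, Xcr1 and Clec9a, did not reach the filter.

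Macrophage genes depended on the library. Of 14 tested monocyte and macrophage markers all rose and 10 did so firmly, 4 of the 14 being genes that could only rise, with Ly6c2, a marker of inflammatory monocytes, at 4.19, 4.46 and 5.10 FPKM against 155, 74.1 and 339 FPKM. Of 11 tested red pulp and island macrophage genes 7 rose as deposited, 5 without globins in the scaling, none firmly (2 of the 11 could only rise), and all 11 without CD45-positive replicate 2. Without CD45-negative replicates 1, 2 and 3 the count was 0, 1 and 2, and without CD45-positive replicate 3 it was 0. C1qa, a chain of complement C1q, stood at 19.2, 9.85 and 10.99 FPKM in CD45-negative cells and at 461, 16.4 and 108 FPKM in CD45-positive cells. Vcam1, the ligand by which island macrophages hold red cell precursors, stood at 3.39, 3.82 and 4.56 FPKM against 408, 13.2 and 82.7 FPKM, and Spic, the factor of red pulp macrophages, at 1.17, 1.70 and 2.75 FPKM against 77.9, 2.00 and 22.5 FPKM. CD45-positive replicate 1 was the highest in each of the 3 genes; replicate 2 lay within the CD45-negative range for C1qa and Spic and above it for Vcam1. The call of Vcam1 failed without CD45-negative replicate 1 or CD45-positive replicate 3 (largest adjusted p = 0.0538). Eosinophil and basophil genes were higher too. All 11 tested rose and 9 were firm, with 7 under 1 FPKM in every CD45-negative library; Prg2, the eosinophil major basic protein, went from 0.95, 0.97 and 2.02 FPKM to 1056, 43.0 and 277 FPKM (6.70 ± 1.00, adjusted p = 0.00193). The basophil protease Mcpt8 went from 0.58, 0.28 and 0.43 FPKM to 37.5, 12.9 and 60.7 FPKM.

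Markers of cells outside the blood lineages were scarce. None of 12 epithelial and carcinoma markers reached the filter, and the list summed to at most 5.14 FPKM in any splenic library. Of 18 endothelial and stromal markers 4 were tested, and the 3 that rose firmly, Pecam1, Fn1 and Thy1, are also expressed by leukocytes, whereas Cdh5 and Col1a1 stayed below the filter. Of 16 megakaryocyte and platelet genes 6 were tested: Itgb3 and Cd9 rose firmly, and Gp9, a platelet receptor subunit, was lower in all 3 CD45-positive libraries, at 7.39, 25.4 and 11.7 FPKM against 34.2, 33.4 and 31.5 FPKM, but its call failed without any one of the CD45-negative replicates or CD45-positive replicate 1 or 3. Pf4 and Itga2b, which define the lineage, overlapped at 3.57 FPKM or less.

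Further lists covered genes by which leukocytes move and sense. Of 34 tested actin regulators, 30 rose and 25 did so firmly, with 8 under 1 FPKM in every CD45-negative library. Coro1a, which turns over actin in leukocytes, went from 14.8, 12.9 and 16.4 FPKM to 614, 170 and 713 FPKM, and Tmsb4x, the thymosin that buffers actin monomers, from 113, 102 and 161 FPKM to 4649, 1338 and 5148 FPKM. Among integrins and adhesion genes 16 of 18 rose, 12 firmly, with 9 of the 18 under 1 FPKM in every CD45-negative library, and the firm fall was that of Icam4; Itgb2, the shared beta chain of the leukocyte integrins, rose from 2.38, 2.16 and 2.59 FPKM to 166, 54.2 and 144 FPKM. Receptors for colony-stimulating factors and interleukins rose in 22 of 25 cases, 20 firmly, but 16 of the 25 could enter only from the CD45-positive side. Csf3r, the G-CSF receptor, rose by 4.52 ± 0.36 and Il1r2, the decoy receptor for interleukin 1, by 3.49 ± 0.27 on the log2 scale. Chemokine and egress receptors gave 11 rises of 12 with 10 firm, Fc receptors and ITAM adaptors 17 of 18 with all 17 firm, and Toll-like receptors and inflammasome genes 17 of 19 with 15 firm; 10, 10 and 11 of these tested genes in turn lay under 1 FPKM in every CD45-negative library, so that they could only rise. Tyrobp, the adaptor DAP12, went from 17.6, 13.1 and 17.1 FPKM to 689, 186 and 584 FPKM. Of 27 myeloid and lymphoid transcription factors 25 rose, 21 firmly, and 14 of the 27 could enter only from the CD45-positive side.

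Genes by which myeloid cells restrain other immune cells were examined as a list of enzymes and cytokines. Of 14 listed, 7 reached the filter, 5 rose and 1 fell, all 6 firmly, and 5 of the 7 lay under 1 FPKM in every CD45-negative library. The rises were small in level: Arg2, arginase 2, stood at 4.37, 2.15 and 7.69 FPKM in CD45-positive cells against 0.03, 0.21 and 0.06 FPKM, and Nt5e, the ectoenzyme CD73 that makes adenosine, at 2.71, 1.96 and 5.87 FPKM against 0.02, 0.05 and 0.02 FPKM. Arg1, Nos2, Ido1 and Il10 did not reach the filter. Artn, a nerve growth factor of the GDNF family, was the one that fell, from 9.03, 7.31 and 8.24 FPKM to 3.50, 4.29 and 3.36 FPKM (-0.96 ± 0.20, adjusted p = 0.00532). Of 21 listed checkpoint genes 11 were tested and 7 rose, 5 firmly, with 5 of the 11 able only to rise. Over all genes tested, 50.5% rose as deposited and 23.6% were firm rises. None of the 11 checkpoint genes fell as deposited. Falls numbered 2 without globins in the scaling, 4 under the trimmed mean and 3 without CD45-positive replicate 2. In those settings 9.13%, 34.7% and 14.6% of all genes fell in turn. The firm rises of the checkpoint list included Sirpa, the receptor for CD47, from 1.73, 1.65 and 1.48 FPKM to 126, 14.8 and 43.9 FPKM. Cd274, the gene of PD-L1, stayed below the filter.

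Glucose transporters and pyruvate kinases had another leading member in each group. Of 30 tested glycolysis genes 23 rose and 1 fell, and 20 rises and the fall were firm; 8 of the 30 lay under 1 FPKM in every CD45-negative library, and without CD45-positive replicate 2, 5 fell. The fall was Slc2a4, the glucose transporter GLUT4, from 54.8, 52.0 and 44.7 FPKM to 13.7, 19.8 and 18.02 FPKM (-1.51 ± 0.21, adjusted p = 0.00157). The transporters Slc2a1 and Slc2a3 rose instead: Slc2a3 went from 4.13, 3.84 and 4.19 FPKM to 25.9, 21.99 and 35.2 FPKM, and Slc2a1 from 0.32, 0.19 and 0.24 FPKM to 11.8, 2.24 and 8.81 FPKM. Pkm, the pyruvate kinase gene of most tissues, rose from 6.61, 3.88 and 4.57 FPKM to 207, 92.6 and 269 FPKM (4.88 ± 0.40, adjusted p = 0.000505). Pklr, which gives the red cell form of the same enzyme, overlapped, at 29.7, 27.1 and 28.7 FPKM against 17.9, 72.3 and 10.8 FPKM. In FPKM, which is per length, Pklr was above Pkm in every CD45-negative library and Pkm was above Pklr in every CD45-positive one. Hk1 overlapped, at 150, 140 and 151 FPKM against 120, 193 and 80.9 FPKM, while Hk2 and Hk3 rose from under 1 FPKM; Hk3 stood at 22.4, 20.6 and 47.9 FPKM in CD45-positive cells. Pfkm, the muscle-type phosphofructokinase, overlapped, at 35.6, 32.6 and 34.3 FPKM against 13.8, 76.4 and 12.9 FPKM, and Pfkp rose from 0.29, 0.39 and 0.35 FPKM to 14.2, 3.38 and 11.1 FPKM. CD45-positive replicate 2 was the highest of all 6 libraries for Pklr, Hk1 and Pfkm and the lowest of its group for Pkm, Hk3 and Pfkp. Bpgm, which makes the red cell's regulator of oxygen affinity, overlapped, at 481, 586 and 498 FPKM against 395, 195 and 711 FPKM. Of the pentose phosphate enzymes, G6pdx rose by 1.83 ± 0.19 and Pgd by 3.33 ± 0.26 on the log2 scale.

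**Figure D4:**
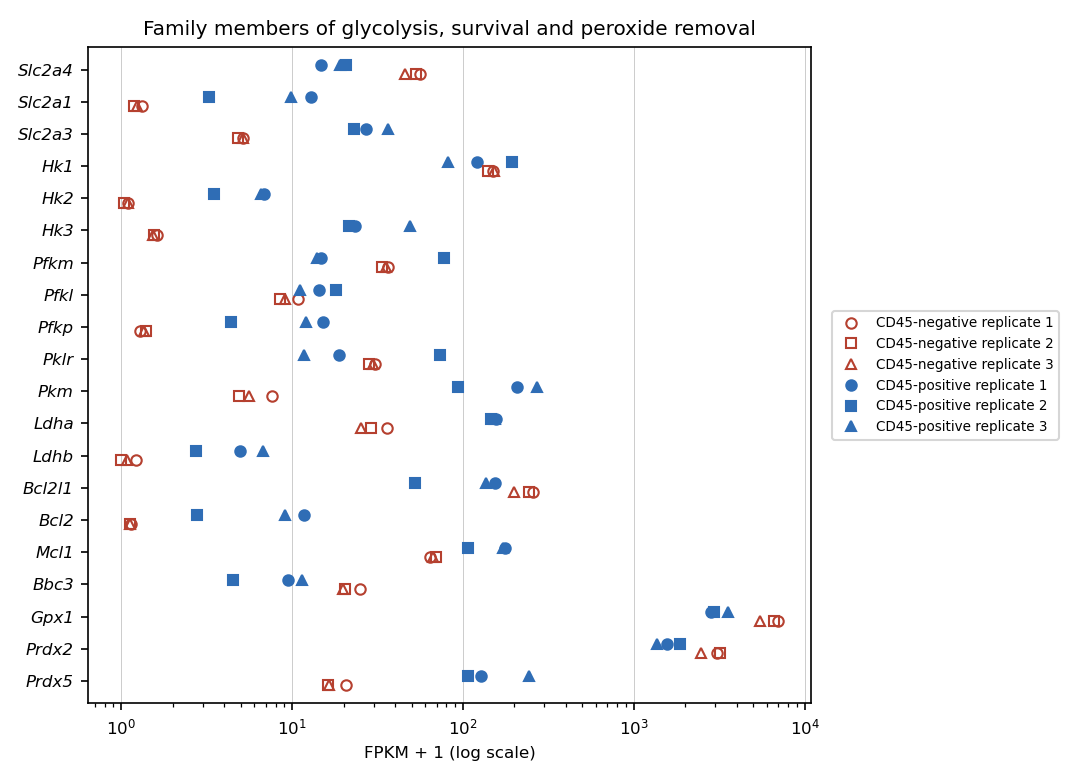
FPKM + 1 (log scale) of genes of glycolysis, cell survival and peroxide removal in each splenic library, with open red symbols for CD45-negative and filled blue symbols for CD45-positive libraries. Slc2a4, Bbc3, Gpx1 and Prdx2 lie lower and Slc2a1, Slc2a3, Pkm, Bcl2 and Prdx5 higher in all 3 CD45-positive libraries, while Hk1, Pfkm and Pklr overlap through CD45-positive replicate 2.

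The BCL2 family gave 11 rises and 2 falls among 16 tested genes, of which 4 rises and 1 fall were firm. Over all genes tested 23.6% were firm rises, a share close to that of this list. Bcl2 rose from 0.14, 0.12 and 0.12 FPKM to 10.7, 1.78 and 8.12 FPKM. Bcl2l1, which gives BCL-XL, the main survival protein of late red cell precursors, was lower in all 3 CD45-positive libraries, at 152, 51.5 and 135 FPKM against 257, 241 and 197 FPKM, but its call did not survive leaving out any CD45-negative replicate or CD45-positive replicate 3 (largest adjusted p = 0.124). Bbc3, the death-promoting PUMA, fell from 23.9, 19.5 and 18.7 FPKM to 8.43, 3.52 and 10.4 FPKM (-1.46 ± 0.35, adjusted p = 0.0103). Bid rose by 1.86 ± 0.18 and Fas by 2.31 ± 0.34 on the log2 scale.

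The calls of housekeeping groups depended on the scaling. Over all genes tested, 50.5% rose and 5.01% fell as deposited, and 24.4% rose and 34.7% fell under the trimmed mean. Without CD45-positive replicate 2, 14.6% of all genes fell. Of 45 ribosomal protein genes 8 rose and none fell as deposited (3, 2, 4 and 4 rose without CD45-negative replicates 1, 2 and 3 and CD45-positive replicate 1), none rose and 31 fell under the trimmed-mean scaling, and no call was firm; their median difference was 0.30, 0.04 and -0.77 under the deposited values, the scaling without globins and the trimmed mean. The 36 proteasome genes had medians of 0.24, -0.02 and -0.82 and the 32 nuclear genes of oxidative phosphorylation -0.04, -0.30 and -1.10 under the same scalings. In each of the latter lists 1 gene fell as deposited; 23 proteasome and 26 oxidative phosphorylation genes fell under the trimmed mean, and 5 and 10 without CD45-positive replicate 2. The medians of the ribosomal and proteasome genes changed sign, whereas the leukocyte marker, histone, haem and red cell membrane lists kept their sign under all 3.

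**Figure D5:**
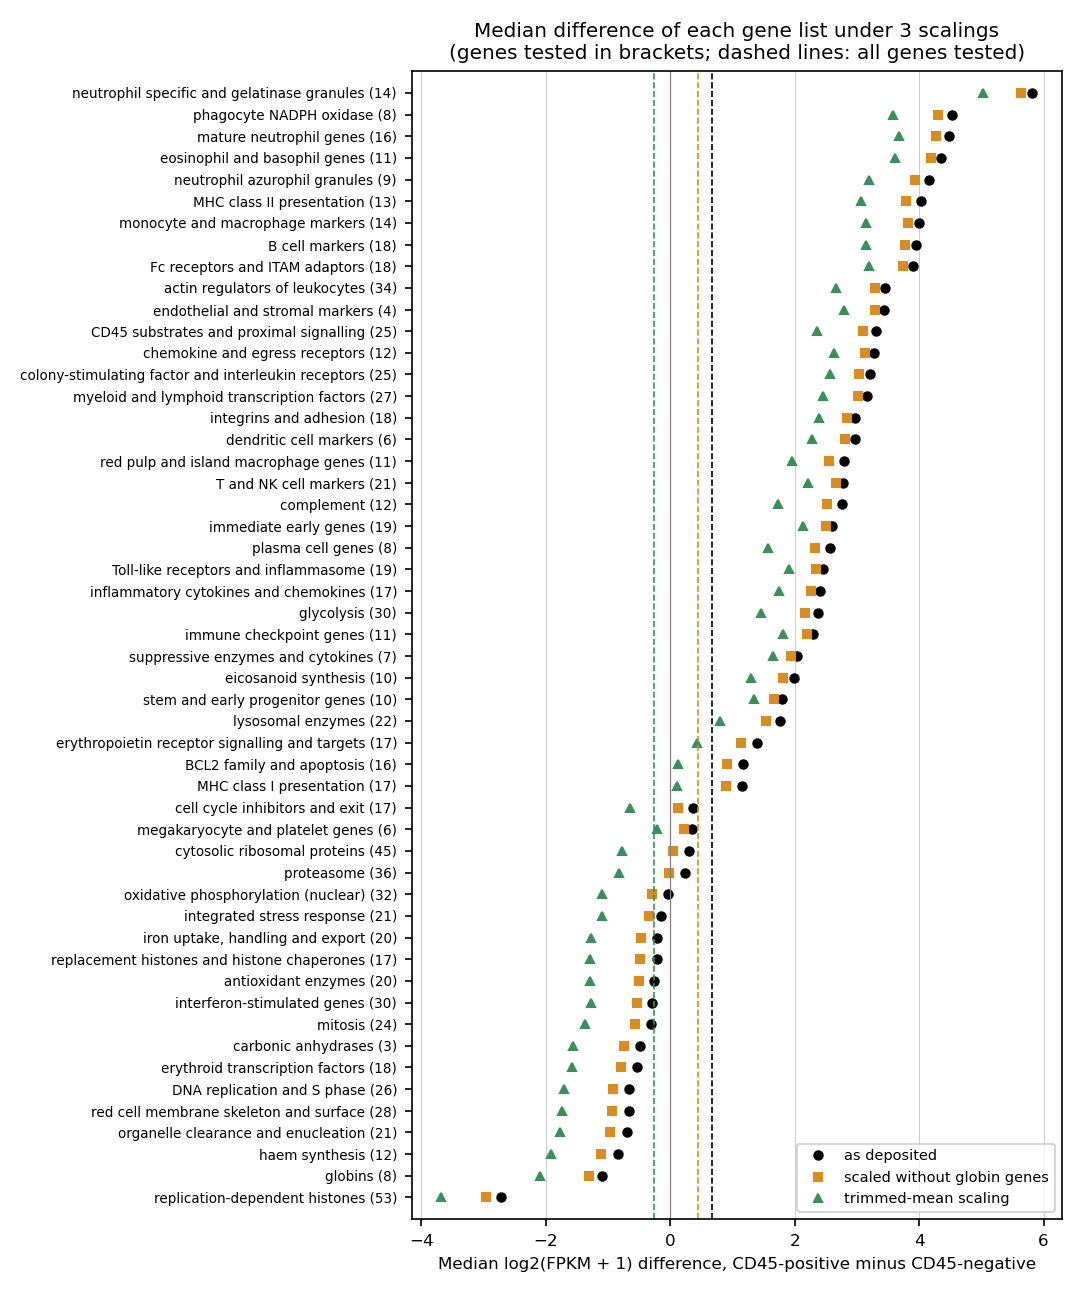
Median log2(FPKM + 1) difference of each gene list with 3 or more tested genes, CD45-positive minus CD45-negative, as deposited (black circles), scaled without globin genes (orange squares) and under a trimmed-mean scaling (green triangles), with dashed lines for the median of all genes tested. The specific and gelatinase granule list lies highest, at 5.82 as deposited, the replication-dependent histones lie lowest, at -2.72, and the ribosomal protein list changes sign with the scaling.

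Among the 180 firm falls, 103 were genes of none of the lists. Those with the greatest fall that are not histones were Samd11, from 114, 115 and 109 FPKM to 25.7, 47.2 and 41.2 FPKM (-1.59 ± 0.25, adjusted p = 0.0022), and Mxd3, a MAX partner that opposes MYC, from 133, 112 and 109 FPKM to 33.5, 47.7 and 38.5 FPKM (-1.55 ± 0.20, adjusted p = 0.0014). They were followed, again apart from histone genes, by Ubald2, Gch1, Mpp2 and Josd2. Gch1, the first enzyme of tetrahydrobiopterin synthesis, went from 154, 135 and 129 FPKM to 38.8, 44.8 and 74.4 FPKM. Mpp2, a scaffold of the same family as the red cell membrane protein p55, went from 46.6, 39.7 and 40.8 FPKM to 14.8, 16.1 and 14.9 FPKM and had the third smallest adjusted p-value of all falls (0.00124). Pcx, pyruvate carboxylase, went from 48.0, 38.4 and 40.9 FPKM to 16.96, 17.3 and 13.96 FPKM. Fzr1, the activator of the anaphase-promoting complex in G1, fell by 1.38 ± 0.21 and Mgst3 by 1.38 ± 0.33 on the log2 scale. In these genes the 3 CD45-positive libraries lay below the 3 CD45-negative ones without overlap.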

How the data were processed

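Values were taken from the tables that the authors deposited, with 1 FPKM value for each RefSeq mRNA model; nothing names the unit, and FPKM was read from the values. The submitters' processing notes name GRCm38.p6. Aligner, counting, RNA selection and strand: not given in the sources used here. Of 61685 models, 60159 had a mouse symbol, and models were summed over 17599 genes. Genes at 1 FPKM or more in 3 of 6 libraries were tested on log2(FPKM + 1) with limma 3.58.1 (R 4.3.3; prior variance with an intensity trend, two-sided, Benjamini-Hochberg, threshold 0.05), after a check on simulated data. Scalings, pseudocounts, filters, a replicate block and left-out libraries were alternatives. The members and the 53 lists were chosen with earlier results of these data known. Genes named were Ptprc, the 15 firm genes with the greatest rise and fall, up to 4 firm and the 2 most abundant members of each list, the 10 smallest p-values in each direction, and any member of the globin, haem, membrane, erythropoietin, CD45 substrate, glycolysis and marker lists; Bbc3, Cebpa, Coro1a, Ddx58, Fzr1, Gata1, Gch1, Gfi1b, Gpx4, H1f3, H1f5, H2ac18, H2bc21, Hmox1, Ifi27, Il1r2, Irf7, Josd2, Mcm2, Mgst3, Oas3, Oasl1, Samd11, Tfrc, Ubald2 and Usp18 were chosen after their values were seen. Promoter sequences are RefSeq's. Some genes are not reported here.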

Additional observations from a re-analysis of the deposited data

How the results depend on the processing

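The count of higher genes (4911) lay between 3757 and 5314 and that of lower genes (487) between 206 and 1421 when each library was left out. In a combination chosen after seeing the data, with the scaling that leaves out globin genes, the leave-one-out counts lay between 2495 and 4563 for higher, 451 and 1905 for lower and 2946 and 6468 for all changed genes; without CD45-negative replicates 2 and 3 the higher counts were 2875 and 2814 and the totals 3339 and 3325, and without CD45-positive replicate 1 the higher count was 3266. The trimmed-mean scaling gave 2370 higher and 3373 lower, the median-ratio scaling 2554 and 2912, the scaling without globins 888 lower, and a common sum 121 lower. A filter at 5 FPKM left 2681 higher and 3118 changed genes of 5398, since fewer genes were tested. Pseudocounts of 0.1 and 5, no filter, 1 fit over all 3 groups and a common prior variance kept both counts within 1.5 times. The cause of the other moves was not tested. The labels do not say whether libraries of the same number share a mouse or a day. Their deviations from the group means correlated at 0.106, 0.068 and -0.014 over genes, and not every sample correlated best with its own number. Whether they were paired cannot be told from these values. The replicate block gave 4442 higher and 407 lower, and with the scaling without globins 3492 and 797. Depth was inferred from the values, and few fragments stand behind values near 1 FPKM.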

Other observations

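The integrated stress response list moved both ways. Phgdh, an enzyme of serine synthesis, stood at 9.71, 7.03 and 6.81 FPKM in CD45-negative and at 33.9, 23.8 and 43.1 FPKM in CD45-positive libraries (limma, 1.94 ± 0.27, adjusted p = 0.00158), and Psat1, an enzyme of the same pathway, at 4.29, 5.65 and 4.52 FPKM against 14.7, 23.8 and 13.1 FPKM. With the stress kinase gene Eif2ak3 they were the 3 firm rises among 21 tested genes of the integrated stress response, of which 6 rose and 5 fell, where 50.5% of all genes rose and 5.01% fell. The falls were 0 without CD45-negative replicate 1 or 2, 2 without CD45-negative replicate 3, 3 without CD45-positive replicate 3 and 9 without CD45-positive replicate 2. Atf4, the central factor of the response, overlapped, at 196, 213 and 196 FPKM against 203, 202 and 187 FPKM.

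Few genes of early progenitors reached the filter, 10 of 20, of which 7 rose firmly and 4 could only rise. The firm rises were Cd48, Erg, Fli1, Flt3, Kit, Myb and Spi1. As deposited, 1 of the 10 fell, and its call was not firm. Over all genes tested, 23.6% were firm rises and 5.01% fell as deposited. Kit, the stem cell factor receptor, went from 0.39, 0.31 and 0.32 FPKM to 2.17, 1.49 and 2.67 FPKM and Flt3 from 0.03, 0.21 and 0.13 FPKM to 6.62, 1.04 and 3.05 FPKM, while Cd34, Gata2 and Meis1 stayed below the filter. Of 17 MHC class I presentation genes 8 rose, a share near the 50.5% of all genes, and 16 without CD45-positive replicate 2, where 54.6% of all genes rose. B2m, the shared light chain, stood at 696, 766 and 911 FPKM against 1654, 441 and 1439 FPKM, with that replicate the lowest of all 6 libraries. Of 12 complement genes 6 rose, again near the share of all genes, and 10 without the same replicate; C3 rose from 0.56, 0.39 and 0.60 FPKM to 40.2, 33.5 and 69.9 FPKM in all 3 libraries.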
